A study of Mus musculus with 2 samples.

Results

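Retinoid oxidation and degradation enzymes were followed through the cell classes of aged skeletal muscle as 8 genes: Rdh10 and Adh1, which encode enzymes that oxidize retinol to retinal, Dhrs3, which encodes a retinal reductase, Aldh1a1, Aldh1a2 and Aldh1a3, which encode the enzymes that oxidize retinal to retinoic acid, and Cyp26a1 and Cyp26b1, which encode the enzymes that clear retinoic acid. They were taken by symbol, and all 8 were found among the 32285 genes listed in both count matrices. Each of them had at least 1 UMI (unique molecular identifier, a count of 1 captured RNA molecule) in the kept cells of each library. The cells came from hindlimb muscle of female C57Bl/6J mice aged 24 months that received 3 intramuscular injections. In the ATRA+agonist group the injected agents were BMS961, an agonist of RAR-gamma, CD3254, an agonist of RXR-alpha, and all-trans retinoic acid (ATRA), and in the other group only the DMSO vehicle was injected. Muscle of 2 mice was pooled in 1 library per group, so there are no replicates and no test was run, and all differences given are those of 1 library from the other.

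Cells make retinoic acid from vitamin A (retinol) in steps. RDH10, and alcohol dehydrogenases such as ADH1, oxidize retinol to retinal, DHRS3 turns retinal back into retinol, and the ALDH1A enzymes oxidize retinal irreversibly to retinoic acid. Retinoic acid enters the nucleus, where RAR and RXR receptors bind DNA, and CYP26 enzymes hydroxylate it, which ends the signal. Cyp26a1, Cyp26b1 and Dhrs3 are known from many tissues as genes that retinoic acid itself induces, so that the pathway limits its own level.

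The kept cells numbered 6907 in the ATRA+agonist library (41630704 UMIs) and 6953 in the DMSO vehicle library (40569832 UMIs), with median depths of 4688 and 4852 UMIs per cell. They fell into 26 clusters. Marker genes put 23 of these in 14 classes, leaving 3 without a name, and 10 classes held at least 50 cells in each library. Names end in "-like" since they were rebuilt from markers. A pair of limits applies to all classes: 9 of the kept barcodes occur in both libraries, and the summed level of the hemoglobin genes was higher in the DMSO vehicle library in each compared class, for example 825 against 244 CPM in fibro-adipogenic progenitor (FAP)-like cells. CPM stands for the UMIs of a gene per 1000000 UMIs of its class and library. The perineurial-like class went against its label in the ATRA+agonist library. Its 6 perineurial markers summed to 404 CPM there and to 4103 CPM in the DMSO vehicle library, and only 6 of its 148 ATRA+agonist cells, but 64 of its 173 DMSO vehicle cells, were perineurial by their own marker UMIs. The count of called pairs, the ratios over other settings and the likeness of patterns are therefore given with and without it.

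The first comparison asked which cells carry the enzymes. Summed over all kept cells there were 6659 UMIs of Dhrs3, 5533 of Aldh1a1, 4324 of Adh1, 3994 of Cyp26b1, 2156 of Rdh10, 2145 of Aldh1a2, 653 of Aldh1a3 and 93 of Cyp26a1. FAP-like cells, the mesenchymal progenitors of muscle, held UMIs of all 8 genes, though very few of Cyp26a1. Tenocyte-like cells also held UMIs of all 8 in both libraries, most of them of Aldh1a1 (169 with ATRA+agonist and 661 with DMSO vehicle) and Dhrs3 (166 and 496). Endothelial-like cells held Dhrs3, Cyp26b1, Adh1 and Rdh10 but had almost no UMIs of the 3 Aldh1a genes. Monocyte or macrophage-like cells held Dhrs3 with few UMIs of the others, and dendritic-like cells held Dhrs3 and Aldh1a2. After every cell was thinned to 1000 UMIs by a random draw, which left out 718 shallower ATRA+agonist and 324 DMSO vehicle cells, a UMI of any Aldh1a gene was seen in 16.5% of ATRA+agonist and 19.1% of DMSO vehicle FAP-like cells, against 0.323% and 0.241% of endothelial-like cells. A UMI of either Cyp26 gene was seen in 11.5% and 10.3% of endothelial-like and in 4.06% and 6.66% of FAP-like cells.

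**Figure D1:**
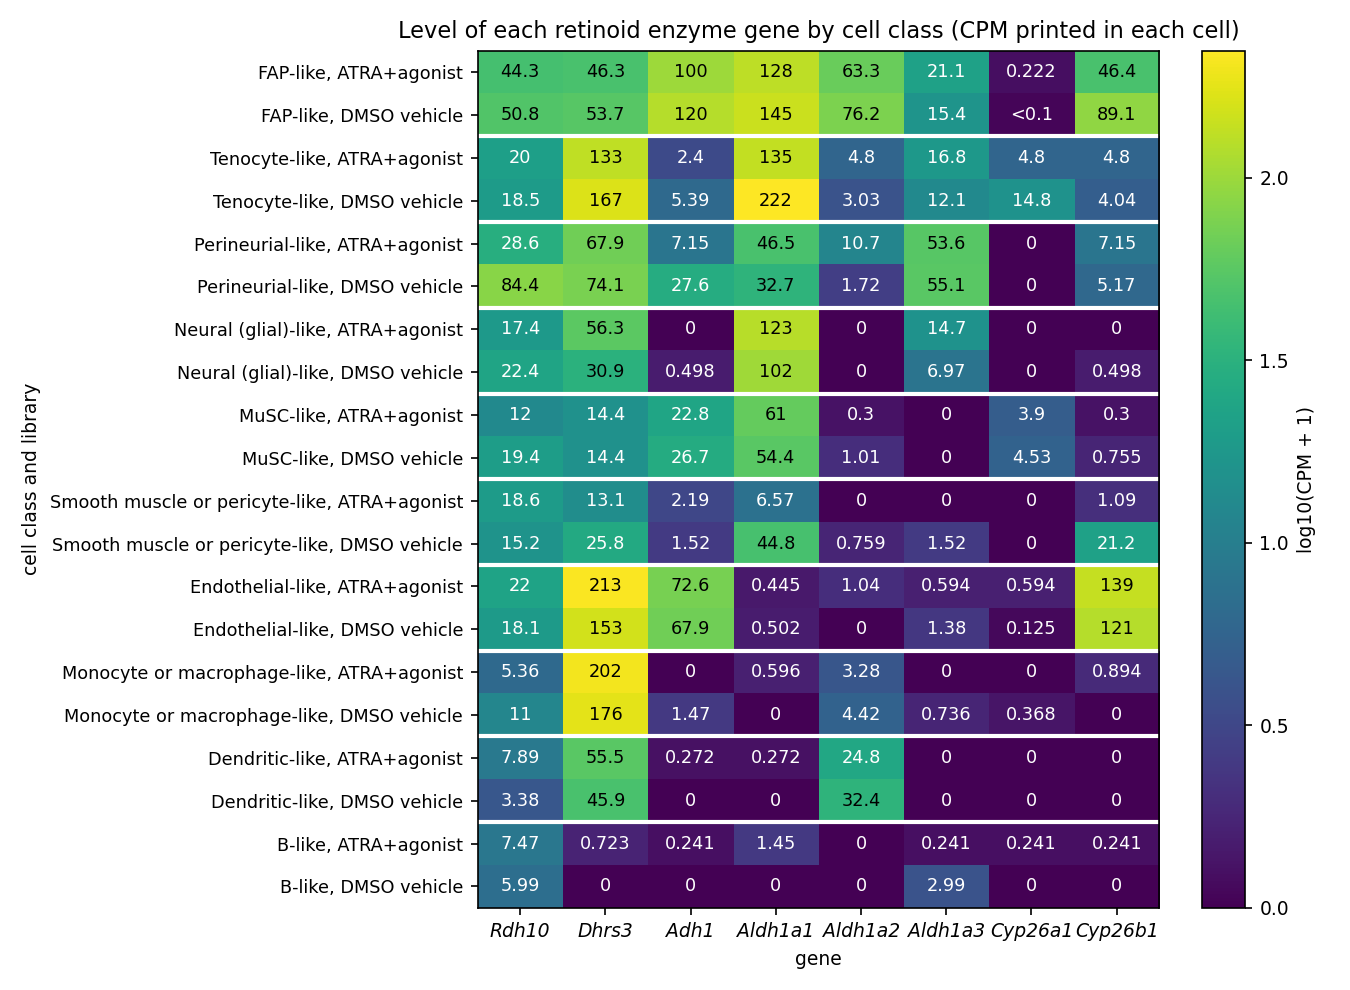
Level of the 8 enzyme genes (columns) in the 10 compared cell classes (rows, with the ATRA+agonist library above the DMSO vehicle library in each class), as CPM of the UMIs summed per class and library, with color on a log10(CPM + 1) scale and the CPM printed in each cell. FAP-like cells carry 7 genes at 15.4 CPM or more in both libraries, while endothelial-like cells carry Dhrs3, Cyp26b1, Adh1 and Rdh10 and are at or under 1.38 CPM for the 3 Aldh1a genes.

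The second comparison asked whether the injected retinoids changed these levels. Of the 80 pairs of a gene and a class, 29 had at least 50 UMIs over both libraries. A ratio was called where it was at least 1.5-fold (0.58 on the log2 scale). The level was higher with ATRA+agonist by this rule in 1 pair, lower in 6 and within the limit in 22. Without the perineurial-like class there were 27 pairs, with 1 higher, 5 lower and 21 within. Of all genes with at least 50 UMIs, 3.93% (monocyte or macrophage-like) to 43.7% (perineurial-like) were called lower, depending on the class. The share called higher ran from 3.00% (FAP-like) to 20.4% (B-like, where no enzyme reached 50 UMIs). Intervals given below are exact 95% intervals for counting error, and leave out the differences between mice and between cells.

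**Figure D2:**
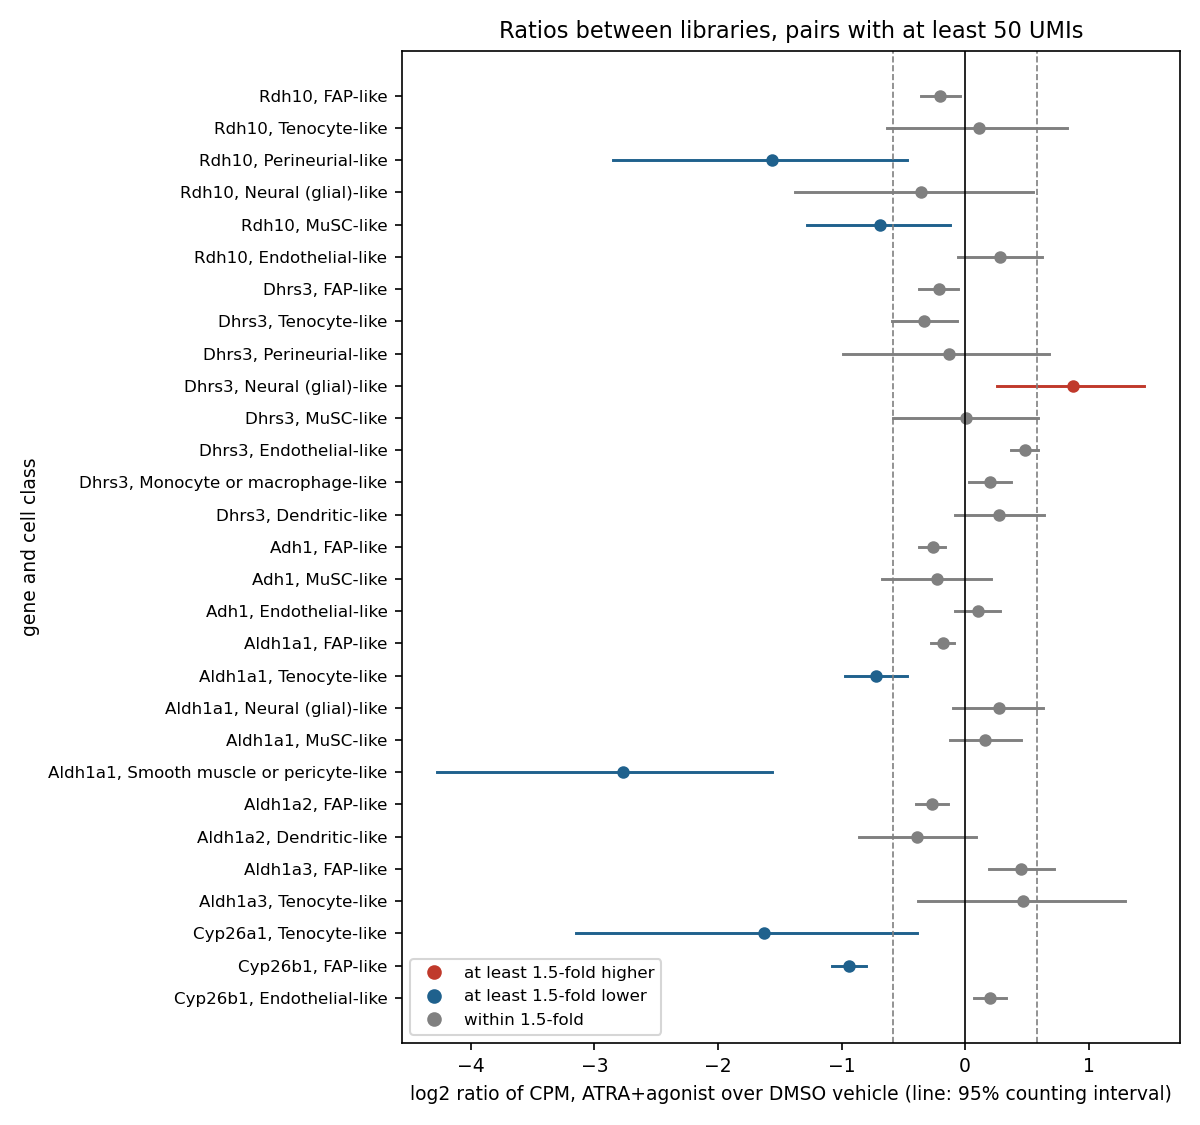
Log2 ratio of the CPM of ATRA+agonist over DMSO vehicle (x axis) for the 29 pairs of a gene and a cell class with at least 50 UMIs (y axis). Lines are 95% counting intervals and dashed lines mark 1.5-fold. Cyp26b1 in FAP-like cells is at -0.94 with a narrow interval, while Aldh1a1 in smooth muscle or pericyte-like cells, at -2.77, has an interval from -4.27 to -1.56.

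Rdh10, whose enzyme catalyzes the first oxidation of retinol, was the one gene of the 8 with a UMI in each of the 10 classes in both libraries. It lies on the plus strand of chromosome 1 (bases 16105774 to 16133734, GRCm38). In FAP-like cells 598 UMIs gave 44.3 CPM (40.9 to 48.0) with ATRA+agonist and 697 UMIs gave 50.8 CPM (47.1 to 54.8) with DMSO vehicle, a log2 ratio of -0.20 (-0.36 to -0.04). These cells held 61.3% and 59.1% of all Rdh10 UMIs of their libraries. The ratio was 0.46 in 1 random draw of 1000 UMIs per cell, in which 65 ATRA+agonist and 56 DMSO vehicle cells had an Rdh10 UMI. In endothelial-like cells the levels were 22.0 and 18.1 CPM (log2 ratio 0.28, -0.06 to 0.62), which did not exceed counting error.

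In muscle stem cell (MuSC)-like cells Rdh10 was lower with ATRA+agonist. The counts were 40 UMIs (12 CPM) and 77 UMIs (19.4 CPM), a log2 ratio of -0.69 (-1.28 to -0.12). A UMI was seen in 28 of 414 cells (6.76%, 4.54 to 9.63) and in 51 of 531 cells (9.60%, 7.23 to 12.4), with overlapping intervals. The 10 cells with most UMIs held 55.0% and 46.8% of them, and 1 DMSO vehicle cell held 10. In MuSC-like cells 4 of the enzymes reached 50 UMIs, and Rdh10 was the 1 called lower with none called higher, where 4.55% of all 9311 genes compared were lower and 6.35% were higher. The ratio stayed under 0 in all 13 alternatives (-0.83 to -0.40). In monocyte or macrophage-like cells Rdh10 rested on 18 and 30 UMIs (5.36 and 11 CPM, log2 ratio -1.04, -1.97 to -0.15), too few to be called. Dhrs3 was the 1 gene with at least 50 UMIs in that class and was not called, where 4.83% of the 8276 genes compared were higher and 3.93% lower. No enzyme reached 50 UMIs in B-like cells, where 20.4% of the 7311 genes compared were higher and 16.9% lower.

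Rdh10 was 28.6 CPM in the perineurial-like class with ATRA+agonist (8 UMIs) and 84.4 CPM with DMSO vehicle (49 UMIs), a log2 ratio of -1.56 (-2.85 to -0.47). This was 1 called gene of 2 with enough UMIs, in a class in which 43.7% of the 2892 genes compared were called lower and the median log2 ratio of all genes was -0.34. In 8 of the alternatives the class took in cells that were FAP-like in the main clustering. The ratio was positive in 6 of these and stayed negative at a resolution of 0.4 (63.6 against 98.0 CPM) and with no maximum of genes (304 against 380 CPM). At a resolution of 1.6 a group of 105 cells separated from FAP-like cluster 1, with Apod, Gpc3, Sbspon and Col28a1 among its leading genes. The naming rule put it with the perineurial-like class, and its perineurial markers were mixed. Tenm2 (1312 and 960 CPM) and Cldn1 (101 and 103 CPM) were above all other FAP-like clusters, in which Cldn1 was at most 4.77 CPM. Ntn4 (317 and 270 CPM) was above the other perineurial-like cluster (42.1 and 142 CPM). Its intervals overlapped those of the FAP-like cluster led by Sema3c and Pi16 (266 and 251 CPM). Itgb4 (0 and 13.8 CPM), Lypd2 (13.1 and 0 CPM) and Slc2a1 (26.2 and 47.3 CPM) were far below the other perineurial-like cluster. That cluster had Itgb4 at 547 and 875 CPM. In the group of 105 cells Pdgfra, the receptor that marks FAPs, was at 694 and 669 CPM. This group is called here by its leading genes. Its 39 ATRA+agonist cells held 95 Rdh10 UMIs (311 CPM, 251 to 380) and its 66 DMSO vehicle cells held 125 UMIs (247 CPM, 205 to 294). The other FAP-like clusters at this resolution lay between 17.6 and 67.4 CPM, and their intervals did not reach these values. Cyp26b1 was also highest there, at 206 CPM (158 to 264) and 298 CPM (252 to 349), with a log2 ratio of -0.53 (-0.98 to -0.10). Aldh1a1 was at 173 and 193 CPM, whereas Aldh1a2 had 0 UMIs and 1 UMI. Genes of retinol oxidation, retinal oxidation and retinoic acid clearance were present in this group, as they were in each other FAP-like cluster. The FAP-like cluster led by Cxcl14 and Smoc2, for example, had Rdh10 at 39.6 and 41.1 CPM, Aldh1a1 at 165 and 207 CPM and Cyp26b1 at 32.4 and 53.5 CPM. The remaining perineurial-like cluster, led by Tenm2, Sfrp5, Cldn1, Itgb4 and Lypd2, held 6 and 68 cells, with Rdh10 at 210 CPM (5 UMIs) and 116 CPM (46 UMIs), the first of them with an interval (68.3 to 491) that overlapped that of the Apod and Gpc3 cluster, and Cyp26b1 at 0 UMIs and 1 UMI.

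**Figure D3:**
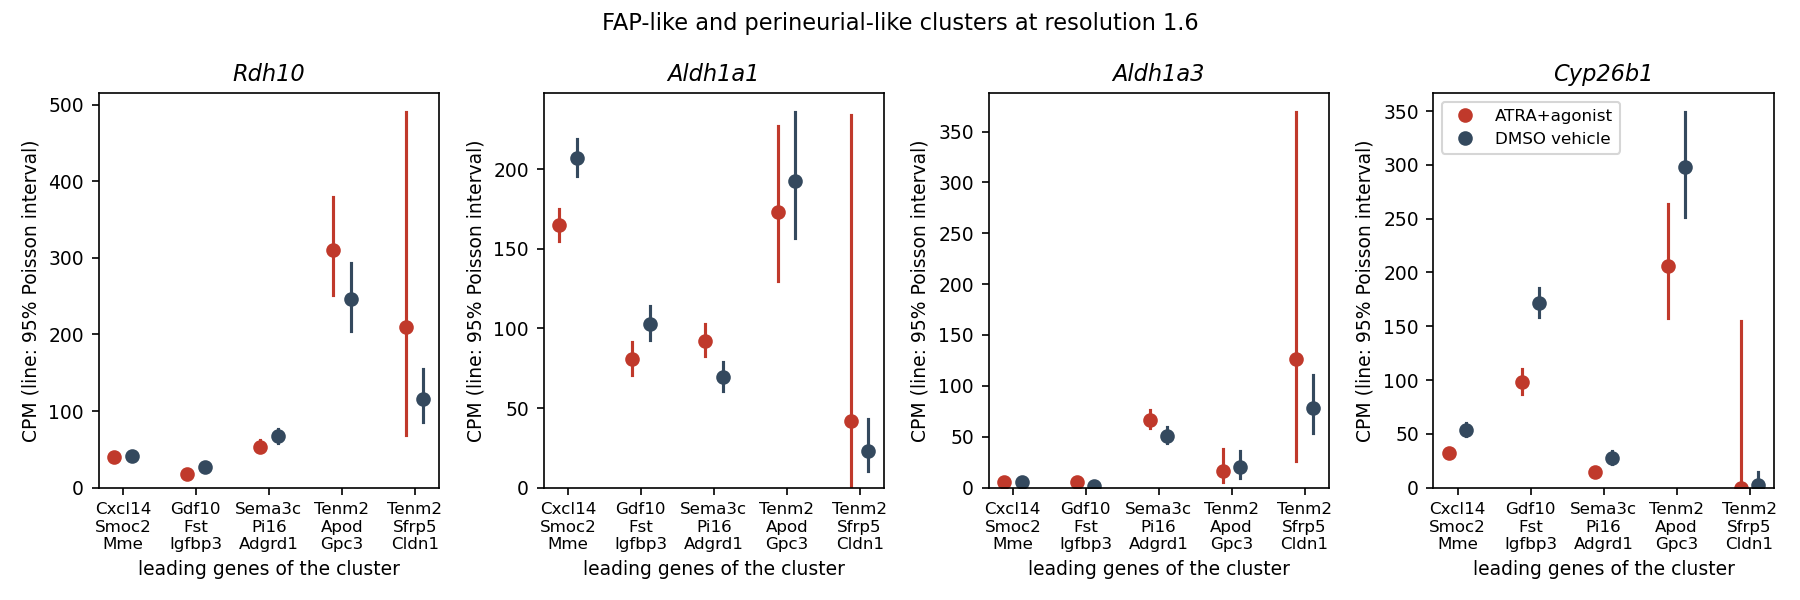
Levels in CPM (y axis) of Rdh10, Aldh1a1, Aldh1a3 and Cyp26b1 in the FAP-like and perineurial-like clusters found at a resolution of 1.6, labeled on the x axis by leading genes, with red for ATRA+agonist, dark blue for DMSO vehicle, and lines for 95% Poisson intervals. The cluster led by Tenm2, Apod and Gpc3 has the highest Rdh10 (311 and 247 CPM) and, with DMSO vehicle, the highest Cyp26b1 (298 CPM); the ATRA+agonist interval of the perineurial-like cluster (6 cells) is wide in all 4 panels.

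Adh1 (chromosome 3, bases 138260991 to 138290698, plus strand), a cytosolic alcohol dehydrogenase that also acts on retinol, had most of its UMIs in FAP-like and endothelial-like cells. In FAP-like cells 1350 UMIs gave 100 CPM (94.8 to 106) with ATRA+agonist and 1645 UMIs gave 120 CPM (114 to 126) with DMSO vehicle, a log2 ratio of -0.26 (-0.37 to -0.16). It was higher in FAP-like cluster 1, led by Cxcl14, Smoc2 and Mme (139 and 166 CPM), than in cluster 5, led by Gdf10 and Fst (78.8 and 103 CPM), and lowest in cluster 7, led by Sema3c and Pi16 (34.5 and 40.3 CPM). The order of the FAP-like clusters was the same in both libraries. Endothelial-like cells had 72.6 CPM (66.3 to 79.3) and 67.9 CPM (62.3 to 73.8), which did not differ beyond counting error, and MuSC-like cells had 22.8 and 26.7 CPM, which did not either. Only 1 and 0 UMIs were seen in dendritic-like cells and 0 and 4 in monocyte or macrophage-like cells. The Adh1 locus overlaps Gm16559, an antisense gene that the matrices also count, and whether the counting used strand was not given in the sources used here.

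Dhrs3 (chromosome 4, bases 144892827 to 144928209, plus strand), the reductase that turns retinal back, was spread over endothelial, myeloid and connective tissue classes. With ATRA+agonist it was 213 CPM (202 to 224; 1436 UMIs) in endothelial-like cells, 202 CPM (187 to 218; 679 UMIs) in monocyte or macrophage-like cells and 133 CPM (113 to 154; 166 UMIs) in tenocyte-like cells. With DMSO vehicle the same classes had 153 CPM (144 to 161; 1216 UMIs), 176 CPM (161 to 192; 478 UMIs) and 167 CPM (153 to 182; 496 UMIs). Tenocyte-like and monocyte or macrophage-like cells did not differ beyond their intervals with DMSO vehicle, and neither did endothelial-like and monocyte or macrophage-like cells with ATRA+agonist. Dhrs3 was seen in 75.5% and 69.1% of monocyte or macrophage-like cells, and in 3 of 640 and 0 of 57 B-like cells, whose median depths were 5371 and 4501 UMIs. The 0 of 57 allows a share with a UMI of up to 5.26% among such cells (3 counts), or 6.27% by the Clopper-Pearson interval. It does not limit the share that express the gene. Monocyte or macrophage-like cells were deeper, with medians of 9821 and 8665.5 UMIs. Thinned to 1000 UMIs, the share in monocyte or macrophage-like cells was 17.5% and 15.1%.

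The direction of Dhrs3 differed by class. In endothelial-like cells the log2 ratio was 0.48 (0.37 to 0.59), under the 1.5-fold limit, and no enzyme was called of the 4 that reached 50 UMIs, where 6.35% of all 11118 genes were called higher and 4.18% lower. The libraries held different endothelial-like clusters: 1634 cells of the first and 735 of the second lay in cluster 0 (leading genes Aqp1 and Kdr), whereas 70 and 1046 lay in cluster 2, whose leading genes Cd274 and Gbp4 respond to interferon. Within cluster 0 Dhrs3 was 229 and 214 CPM (log2 ratio 0.10, -0.04 to 0.24), within cluster 2 it was 223 and 144 CPM (0.63, 0.21 to 1.02), and within cluster 18, led by Cytl1, Sema3g and Gja5, it was 57.5 and 28.1 CPM (1.03, 0.13 to 1.96). With the DMSO vehicle clusters weighted to the ATRA+agonist make-up, a setting chosen after the data had been seen, the log2 ratio was 0.13.

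In neural (glial)-like cells Dhrs3 was the 1 pair called higher, with 42 UMIs (56.3 CPM) and 62 UMIs (30.9 CPM) and a log2 ratio of 0.87 (0.26 to 1.45). It was 1 of 3 genes with enough UMIs there, where 6.25% of the 7356 genes compared were higher and 8.89% lower. The cells with a Dhrs3 UMI had more FAP marker RNA (3239 and 2364 CPM) than those without (893 and 997 CPM), and 1 ATRA+agonist cell held 11 of the 42 UMIs. The part of FAP RNA in this ratio was not tested. The ratio was 0.50 with weighted clusters, 0.05 without doublet removal and -0.60 after thinning to 1000 UMIs. Dhrs3 was slightly lower with ATRA+agonist in FAP-like cells (46.3 and 53.7 CPM, log2 ratio -0.21, -0.37 to -0.06) and in tenocyte-like cells (-0.33, -0.59 to -0.07), and higher in monocyte or macrophage-like cells (0.20, 0.03 to 0.37), all within 1.5-fold. In MuSC-like cells it was 14.4 CPM in both libraries.

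Aldh1a1 (chromosome 19, bases 20492715 to 20643465, plus strand, with C730002L08Rik on the other strand) was the retinal dehydrogenase gene with most UMIs, and these lay in tenocyte-like, FAP-like, glial-like and MuSC-like cells. With ATRA+agonist the levels were 135 CPM (115 to 157), 128 CPM (122 to 134), 123 CPM (99.3 to 151) and 61.0 CPM (52.9 to 69.9), and the first 3 did not differ beyond their intervals. With DMSO vehicle they were 222 CPM (206 to 240), 145 CPM (139 to 152), 102 CPM (88.6 to 117) and 54.4 CPM (47.4 to 62.2), and no neighbors in this order had overlapping intervals. The UMIs were seen in 51.9% and 49.5% of tenocyte-like cells and in 3 of 1910 and 4 of 2109 endothelial-like cells. Myonuclei-like barcodes, which occurred in the ATRA+agonist library alone, held 38 UMIs (100 CPM).

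Aldh1a1 was also found beside red blood cell RNA. In barcodes with under 300 genes, in which hemoglobin made up 96.4% and 96.6% of UMIs, it reached 641 and 813 CPM of the other UMIs, and no other of the 8 genes exceeded 27.0 CPM. At the ratio of Aldh1a1 to hemoglobin UMIs in these barcodes, the hemoglobin of DMSO vehicle tenocyte-like cells would carry 0.0305 of their 222 CPM. The highest such value in a compared class was 0.0402 CPM, in DMSO vehicle endothelial-like cells. Whether that ratio holds in the classes was not tested.

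In tenocyte-like cells Aldh1a1 was lower with ATRA+agonist, at 169 UMIs in 162 cells and 661 UMIs in 499 cells, a log2 ratio of -0.72 (-0.97 to -0.47). Over the 12 alternatives that gave a value it ranged from -0.82 to -0.66. Aldh1a1 and Cyp26a1 were the 2 of 5 genes called lower in tenocyte-like cells and none was higher, where 9.43% of all 8488 genes were called lower and 5.53% higher. Thinned to 1000 UMIs, 11.2% and 16.9% of tenocyte-like cells had an Aldh1a1 UMI, and the DMSO vehicle cells were the shallower ones (median 5231 against 7156 UMIs). FAP-like cells had a log2 ratio of -0.18 (-0.28 to -0.09), which split by cluster: -0.31 (-0.43 to -0.20) in cluster 1, -0.35 (-0.59 to -0.12) in cluster 5 and 0.41 (0.15 to 0.66) in the Sema3c and Pi16 cluster 7.

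In smooth muscle or pericyte-like cells Aldh1a1 had 6 UMIs (6.57 CPM) with ATRA+agonist and 59 UMIs (44.8 CPM) with DMSO vehicle, a log2 ratio of -2.77 (-4.27 to -1.56) that became -1.15, outside this interval, after thinning to 1000 UMIs. No other enzyme reached 50 UMIs there, where 8.52% of the 6551 genes compared were lower and 7.10% higher. Of the DMSO vehicle UMIs 71.2% came from 10 cells. The 24 cells with a UMI carried FAP markers at 1539 CPM, against 307 CPM in the other DMSO vehicle cells of the class, and the part of FAP RNA in this difference was not tested. Cyp26b1 rested on few cells in the same class, with 1 UMI and 28 UMIs and 89.3% of the latter in 10 cells, and its log2 ratio of -4.28 (-9.63 to -1.68) became -1.03 without doublet removal. Cells with a Cyp26b1 UMI held FAP markers at 375 CPM and endothelial markers at 870 CPM, against 441 and 543 CPM in the others.

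Aldh1a2 (chromosome 9, bases 71215789 to 71296243, plus strand), the main retinoic acid synthase of the early embryo, was found mostly in FAP-like and dendritic-like cells. FAP-like cells held 854 UMIs (63.3 CPM, 59.2 to 67.7) with ATRA+agonist and 1045 UMIs (76.2 CPM, 71.7 to 81.0) with DMSO vehicle, which were 86.6% and 90.2% of all Aldh1a2 UMIs. The log2 ratio was -0.27 (-0.40 to -0.14). Its UMIs sat in few cells, since 18.6% and 20% of FAP-like cells had any while single cells held up to 37 and 41. By cluster the level was 93.4 and 111 CPM in cluster 1, 46.6 and 72.0 CPM in cluster 7 and 9.97 and 19.2 CPM in cluster 5, and it was lower with ATRA+agonist in each (log2 ratio -0.24, -0.63 and -0.95). None of these intervals reached 0. Dendritic-like cells, led by Cd209a and Retnla, held 91 UMIs (24.8 CPM, 19.9 to 30.4) and 67 UMIs (32.4 CPM, 25.1 to 41.1), seen in 14.5% and 12.9% of cells, with no difference beyond counting error. In B-like and neural (glial)-like cells Aldh1a2 was at 0 in both libraries, which allows up to 0.723 and 8.98 CPM in B-like and 4.02 and 1.49 CPM in glial-like cells. Neither enzyme that reached 50 UMIs in dendritic-like cells was called, where 7.00% of the 7809 genes compared were higher and 4.09% lower.

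Aldh1a3 (chromosome 7, bases 66390890 to 66427517, minus strand), the third retinal dehydrogenase gene, lay mostly in 1 FAP-like cluster. The class had 284 UMIs (21.1 CPM, 18.7 to 23.7) with ATRA+agonist and 211 UMIs (15.4 CPM, 13.4 to 17.6) with DMSO vehicle, a log2 ratio of 0.45 (0.19 to 0.72). Of these, 223 and 166 UMIs lay in the Sema3c and Pi16 cluster 7 (67.5 and 53.6 CPM, log2 ratio 0.33, 0.04 to 0.63), while cluster 1 was at 6.28 and 6.06 CPM. The Gdf10 and Fst cluster 5 held 16 and 4 UMIs (log2 ratio 2.36, 0.72 to 4.39). It was the one gene with a ratio above 0 of the 7 that reached 50 UMIs in FAP-like cells, and the ratio stayed between 0.34 and 0.61 over the 13 alternatives. In MuSC-like cells Aldh1a3 was at 0 UMIs in both libraries, which allows up to 0.901 and 0.755 CPM. The perineurial-like class held 15 and 32 UMIs, of which a single DMSO vehicle cell held 23.

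**Figure D4:**
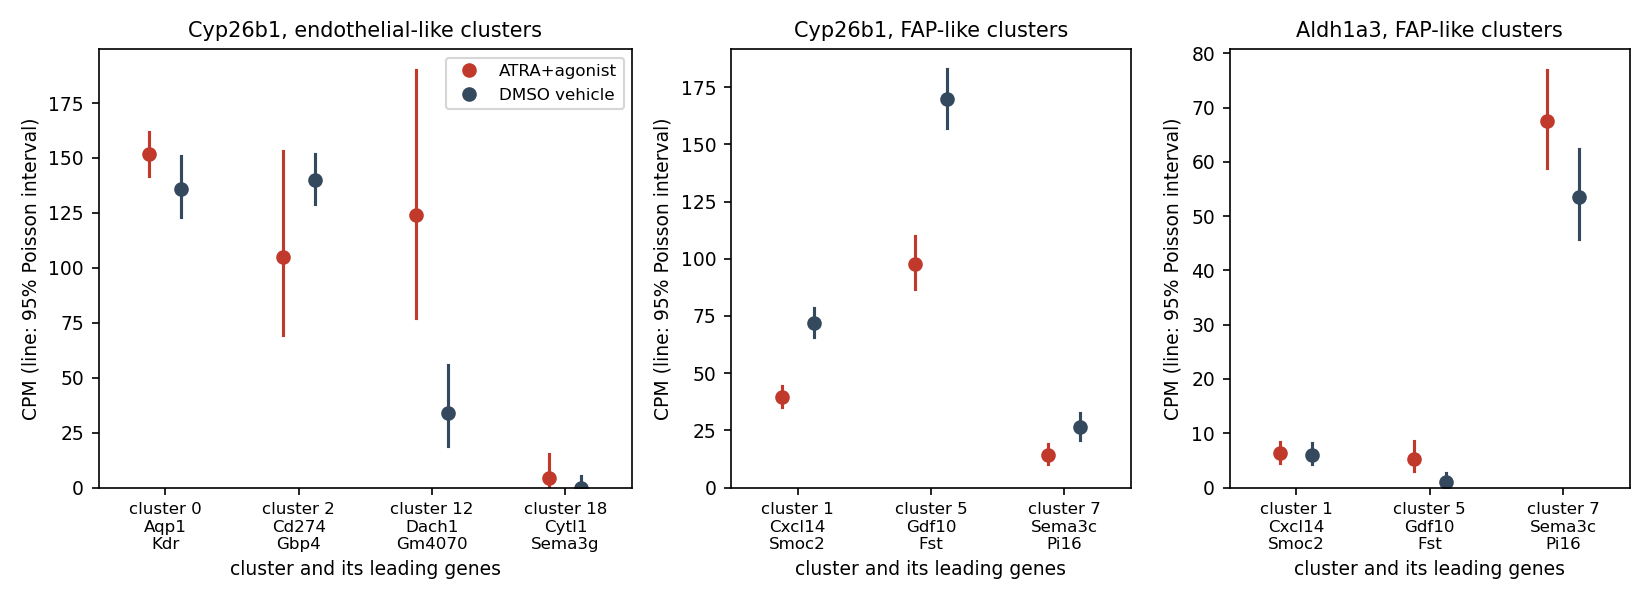
Levels in CPM (y axes) of Cyp26b1 in the 4 endothelial-like clusters (left) and the 3 FAP-like clusters (center), and of Aldh1a3 in the FAP-like clusters (right), with red for ATRA+agonist, dark blue for DMSO vehicle, and lines for 95% Poisson intervals; clusters are labeled by leading genes. Cyp26b1 is lower with ATRA+agonist in all 3 FAP-like clusters, is near 0 in the endothelial-like cluster led by Cytl1 and Sema3g, and Aldh1a3 is high in the cluster led by Sema3c and Pi16.

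Cyp26b1 (chromosome 6, bases 84571414 to 84593908, minus strand), whose enzyme clears retinoic acid, was the 1 called pair with over 1000 UMIs. In FAP-like cells 626 UMIs gave 46.4 CPM (42.9 to 50.2) with ATRA+agonist and 1221 UMIs gave 89.1 CPM (84.1 to 94.2) with DMSO vehicle, so the level was 1.92-fold lower with ATRA+agonist (log2 ratio -0.94, -1.08 to -0.80). No other of the 7 enzymes that reached 50 UMIs in FAP-like cells was called, where 6.61% of the 13173 genes compared were lower and 3.00% higher. A UMI was seen in 238 of 1330 cells (17.9%, 15.9 to 20.1) and in 375 of 1652 cells (22.7%, 20.7 to 24.8), against 0 of 297 and 0 of 171 dendritic-like cells. Median depths were 9824.5 and 7973.5 UMIs in FAP-like and 13011 and 12617 UMIs in dendritic-like cells. At 1000 UMIs per cell the FAP-like shares were 3.98% and 6.66%. The 10 cells with most UMIs held 20.1% and 15.4% of the total.

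Each FAP-like cluster had less Cyp26b1 with ATRA+agonist. The Gdf10 and Fst cluster 5 had the highest level, 97.7 CPM (294 UMIs) against 170 CPM (653 UMIs), followed by cluster 1 with 39.7 CPM (285 UMIs) against 71.9 CPM (486 UMIs) and cluster 7 with 14.2 CPM (47 UMIs) against 26.5 CPM (82 UMIs). The log2 ratios were -0.80, -0.85 and -0.90. With DMSO vehicle clusters weighted to the ATRA+agonist make-up the class ratio was -0.83. Over the 13 alternatives it ranged from -1.02 to -0.72.

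Endothelial-like cells held Cyp26b1 at 139 CPM (130 to 148; 937 UMIs) and 121 CPM (113 to 129; 963 UMIs), a log2 ratio of 0.20 (0.07 to 0.33). The 95% intervals of the FAP-like and endothelial-like ratios did not overlap, but with 1 library per group the difference between them was not tested. Cluster 0 had 152 and 136 CPM and the interferon-response cluster 2 had 105 and 140 CPM, with ratios of 0.16 (-0.02 to 0.33) and -0.41 (-1.02 to 0.15) that did not exceed counting error. The shallow cluster 12, led by Dach1 and Mecom, had 21 and 15 UMIs (124 and 34.0 CPM, log2 ratio 1.87, 0.85 to 2.93). Cluster 18, with the arterial genes Sema3g and Gja5, held 2 and 0 Cyp26b1 UMIs.

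Cyp26a1 (chromosome 19, bases 37697798 to 37701536, plus strand) encodes the other clearing enzyme. It had 93 UMIs in all, 44 of them in DMSO vehicle and 6 in ATRA+agonist tenocyte-like cells (14.8 and 4.8 CPM, log2 ratio -1.63, -3.15 to -0.39). The 44 UMIs came from 16 of 499 cells, 86.4% of them from 10 cells. The 16 cells carried FAP markers at 30511 CPM against 18424 CPM in the others, and tenocyte markers at 22160 against 17084 CPM. The part of FAP RNA was not tested. In MuSC-like cells 13 and 18 UMIs gave 3.90 and 4.53 CPM (log2 ratio -0.22, -1.37 to 0.89). The gene had 3 UMIs and 1 UMI in FAP-like cells and 4 and 1 in endothelial-like cells. In smooth muscle or pericyte-like cells it was at 0, which allows up to 3.28 and 2.28 CPM. At these counts a difference between the libraries was not detectable outside tenocyte-like cells.

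Cyp26a1 is the gene of the 8 whose promoter held a pattern that RAR and RXR are known to bind, a direct repeat of 2 half-sites with 5 bases between them. The promoter windows (250 bases before to 50 after a RefSeq start site, GRCm38.p6) of 6 of the 8 genes were searched on both strands for pairs of the half-sites AGGTCA (or, in its place, AGTTCA or else GGGTCA or else GGTTCA) that lay 5 or 2 bases apart, and no windows were held for Rdh10 and Aldh1a3. A pair 5 bases apart was in the Cyp26a1 window alone of these 6 and in 32 of 32851 windows (0.0974%), and a pair 2 bases apart was in none of the 6 and in 88 windows (0.268%). The repeat, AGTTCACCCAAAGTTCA on the minus strand at bases 37697776 to 37697792 of chromosome 19, ended 16 bases before the RefSeq start site. It is shown because it is the one such repeat found, in capitals as it reads on the plus strand, within the 120 bases of chr19:37697678-37697797 upstream of the gene.
Cyp26a1 upstream: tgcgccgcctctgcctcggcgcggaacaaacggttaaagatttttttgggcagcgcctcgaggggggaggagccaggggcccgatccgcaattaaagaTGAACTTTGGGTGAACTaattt
A match describes these letters and not a bound site, and no match in the other windows says nothing of sites elsewhere in those genes.

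For the 7 enzymes with at least 100 UMIs, which leaves out Cyp26a1, all genes were ranked by the likeness of their levels over the 10 classes in both libraries (Pearson r over 20 values, log scale, 15294 genes ranked). The nearest 3 genes were other ones for each enzyme. They were Gpr161, Bmp1 and Arl4a for Rdh10 (r = 0.931 to 0.903), Ier3, St6galnac6 and Ctsd for Dhrs3 (0.898 to 0.854), Hmcn1, Ackr3 and Ntf3 for Adh1 (0.930 to 0.921) and Fam13c, Car8 and Ly6c1 for Cyp26b1 (0.961 to 0.949). For the retinal dehydrogenases they were Sod3, Abca8b and Zfhx4 for Aldh1a1 (0.965 to 0.962), Ifi205, Rtn1 and Wnt11 for Aldh1a2 (0.954 to 0.874) and Fzd2, Igfbp6 and Gpr27 for Aldh1a3 (0.949 to 0.922). Among the 7 enzymes themselves Adh1 and Cyp26b1 were most alike (r = 0.825) and Aldh1a1 and Dhrs3 least (0.0419). Without the perineurial-like class (18 values), a choice made after the data had been seen, the nearest genes of Rdh10 were Nsg1, Ugdh and P4ha2 (0.933 to 0.925) and those of Aldh1a3 were Sema3c, Dclk1 and Lrrn2 (0.977 to 0.952), none of them named above for these enzymes. Ier3 and Ctsd for Dhrs3, Ntf3 for Adh1, Sod3 and Zfhx4 for Aldh1a1, and the 3 genes named for Aldh1a2 and for Cyp26b1 were again among the nearest. Adh1 and Cyp26b1 were then at r = 0.844 and Aldh1a1 and Dhrs3 at 0.0334. The values of a library share its preparation, so these are descriptions.

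The wider pathway was set beside the 8 genes in FAP-like cells, where 6.61% of all genes compared were called lower and 3.00% higher. Of 20 other retinol and retinal oxidoreductases 11 had at least 50 UMIs, none was higher and Bco1, which cleaves carotenoids to retinal, was lower, with 3 and 60 UMIs, so that 1 of 11 was called. Bco1 has under 100 UMIs in all and is named after its values were seen. Of these, 59 DMSO vehicle UMIs lay in 6 cells of cluster 7 and 28 in 1 cell. Of 7 other retinal or retinoic acid oxidases 3 had enough UMIs and Cyp1b1, a cytochrome P450 that can oxidize retinol and retinal, was lower (533 and 926 UMIs, log2 ratio -0.77, -0.93 to -0.62), in each of the 3 FAP-like clusters. Of 11 genes of retinoid binding, uptake and storage 7 had enough UMIs and the retinol receptor gene Stra6 was lower (16 and 57 UMIs, -1.81, -2.71 to -0.99), mostly in cluster 1. Of the 15 genes listed as induced by retinoic acid, which share Cyp26a1, Cyp26b1 and Dhrs3 with the 8, 12 had enough UMIs. Rarb (-0.64), Stra6, Cyp26b1 and Tgm2 (-0.68) were lower and Ret was higher (0.60), with a median log2 ratio of -0.23 against 0.01 over all genes compared. The median over the 7 enzymes with enough UMIs was -0.21.

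In endothelial-like cells, where 4.18% of all genes compared were lower and 6.35% higher, none of the other oxidoreductases or oxidases was called, of 7 and 1 with enough UMIs. Rbp7 (-0.63), Lrat (-0.79), which stores retinol as esters, and Lpl (-0.78) were lower among 6 genes of binding, uptake and storage, and of the 7 induced genes with enough UMIs Rarb was higher (95 and 59 UMIs, 0.93, 0.45 to 1.42) and Tgm2 lower (-0.90). The median over the 7 was 0.20 against 0.09 over all genes, and over the 4 enzymes with enough UMIs it was 0.24. With the DMSO vehicle clusters weighted to the ATRA+agonist make-up, the ratios became -0.35 for Lrat, -0.81 for Lpl, -1.31 for Rbp7, -0.54 for Tgm2 and 1.27 for Rarb, so that Lrat and Tgm2 came under 1.5-fold. Within cluster 0 Lrat was at -0.21 (-1.03 to 0.66), Rbp7 at -1.46 (-1.59 to -1.33) and Rarb at 1.53 (0.70 to 2.46; 86 and 14 UMIs), while within cluster 2 Rbp7 was at 0.18 (-0.37 to 0.68) and Rarb had 2 and 30 UMIs. Rarb lay on opposite sides of 0 in FAP-like and endothelial-like cells, as Cyp26b1 did, and neither difference was tested.

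Some of the listed genes were past 1.5-fold in the other classes, each among few with at least 50 UMIs. Of the 20 other oxidoreductases, 5 had enough UMIs in tenocyte-like and dendritic-like cells and 7 in MuSC-like cells. In smooth muscle or pericyte-like, monocyte or macrophage-like and B-like cells 6 did. Of the 11 genes of binding, uptake and storage, at most 5 did in any of these classes. In tenocyte-like cells Rdh5 (-0.78), Dgat1 (-0.76) and Ncoa7 (-1.0) were lower, where 9.43% of all genes compared were lower and 5.53% higher. In MuSC-like cells Rdh13 (-0.68) was lower and Rbp7 (0.68) was higher, where 4.55% of all genes compared were lower and 6.35% higher. Smooth muscle or pericyte-like cells had Rdh5 (0.89), Rdh14 (0.78) and Rarb (0.62) higher, and the receptor gene Rara (-1.06) and Dgat1 (-0.60) lower. Of all genes compared there 7.10% were higher and 8.52% lower. In monocyte or macrophage-like cells Lpl (0.73) and Rarg (0.59) were higher and Rdh5 (-0.82) was lower. There 4.83% of all genes compared were higher and 3.93% lower. Dendritic-like cells had Dhrs9 (0.64) and Ncoa7 (0.60) higher and Dgat1 (-1.44) lower, with 7.00% of all genes compared higher and 4.09% lower. B-like cells, with 57 DMSO vehicle cells, had Rdh12 (1.62), Rdh11 (0.99) and Dgat1 (0.80) higher and Dhrs7 (-0.92) lower. There 20.4% of all genes compared were higher and 16.9% lower. The perineurial-like class had Stra6 (-2.29), Rarg (-1.63) and Crabp2 (13 and 54 UMIs) lower, with 43.7% of all genes compared lower and 17.9% higher. Of the listed genes beyond the 8 enzymes none was called in neural (glial)-like cells.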

How the data were processed

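Values were deposited as unnormalized UMI counts for every gene in every barcode called as a cell. Cell Ranger 7.2.0 and the mouse build mm10 (GRCm38) were used by the authors. Positions follow GENCODE M21 (GRCm38), and the annotation release used for counting is not given in the sources used here. The authors' limits were applied (300 to 5000 genes, under 20% mitochondrial and under 0.25% Hbb- UMIs, the 7.5% of cells with the highest doublet score removed). Clustering (igraph 0.11.9, scikit-learn 1.9.0) used 2000 variable genes, 30 components and a resolution of 0.8, without the 8 enzymes and the other retinoid genes (60 in all). A cluster was named where at least 3 markers of a class were at least 2-fold higher, and remained unnamed where other markers led or depth was low. UMIs were summed per class and library and given as CPM. CPM have Poisson, shares Clopper-Pearson and ratios conditional binomial 95% intervals, which cover counting error only. Levels are not divided by gene length, since UMIs come from the 3' end. A ratio needed 10 UMIs and a call 50 UMIs and 1.5-fold, and a count of 0 was taken to allow 3. The interval method was tested on simulated counts.

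The rule for named genes took all 8 enzymes, the listed retinoid genes with at least 100 UMIs that were past 1.5-fold in a class, and the 3 genes nearest in pattern to each enzyme with at least 100 UMIs. The listed receptor and induced genes within 1.5-fold, which it also took, are given by count. The members and lists were chosen with earlier results of these data known, and a T cell marker list for cluster naming was added later. Alternatives were other limits on cells, doublet rates, resolutions and scaling, thinning, and classes by each cell's own markers. With 1 library per group, no test was run. A comparison within the neural (glial)-like class and the values of a listed gene are not reported here.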

Additional observations from a re-analysis of the deposited data

Results flagged for a closer look

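In the main processing the ratio of Dhrs3 went in opposite directions in different classes. It was above 0 in endothelial-like (log2 ratio 0.48), monocyte or macrophage-like (0.20) and neural (glial)-like cells (0.87), and below 0 in FAP-like (-0.21) and tenocyte-like cells (-0.33), each with a counting interval that left out 0. Cyp26b1 was above 0 in endothelial-like cells (0.20) and below 0 in FAP-like (-0.94) and smooth muscle or pericyte-like cells (-4.28, on 29 UMIs). The last of these became -1.03 without doublet removal. Weighting the DMSO vehicle clusters to the ATRA+agonist make-up gave Dhrs3 ratios of 0.13 in endothelial-like, 0.50 in neural (glial)-like and -0.08 in FAP-like cells. Thinning turned Dhrs3 to -0.60 in neural (glial)-like and to 0.45 in tenocyte-like cells. Endothelial-like, monocyte or macrophage-like and FAP-like cells kept their Dhrs3 sign under all settings that gave a value. With 1 library per group the differences between classes were not tested.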

How the results depend on the processing

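Of 528 ratios recomputed under other settings, 51 changed sign, in 20 of the 45 pairs. For 42 of these the main counting interval held 0, and 9 belonged to pairs whose interval left out 0, which are given next. Without the perineurial-like class 27 of 473 changed sign, 3 of them in such pairs. Beside these 9, 491 ratios lay inside the main interval and 28 outside it, sign changes included. The 491 include all 45 from naming without the T cell list added later and all 45 from median-of-ratios scaling. The latter shifts all genes of a class by 1 constant, 0.01 in FAP-like cells, so these 2 settings are weak checks. Rdh10 in perineurial-like cells turned to 0.03 with no doublet removal, 0.38 with a doublet rate of 15%, 0.20 with no hemoglobin filter, 0.12 with at least 500 genes, 0.68 at a resolution of 1.6 and 0.02 with retinoid genes kept for clustering. Thinning to 1000 UMIs turned Rdh10 in FAP-like cells to 0.46, Dhrs3 in neural (glial)-like cells to -0.60 and in tenocyte-like cells to 0.45, moved Cyp26b1 in FAP-like cells to -0.72 and left 2 pairs called lower. The count of pairs lower was 10 at a resolution of 0.4, and the count higher was 2 with a doublet rate of 15% and at a resolution of 1.6, and the cause was not tested. Of 176 levels in the leading class, the perineurial-like class included, 131 stayed within their interval and 45 moved. The leading class of Adh1 (FAP-like), Aldh1a2 (FAP-like) and Cyp26a1 (tenocyte-like) was the same in both libraries under all 11 settings, while that of Rdh10 with ATRA+agonist was the same in 2 of 11. Under a setting 30 values could not be given for want of UMIs or cells. No paired analysis was possible because each group is 1 library. With 1 library per group no library could be left out.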

Other observations

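The hemoglobin filter removed 357 ATRA+agonist and 1725 DMSO vehicle barcodes that passed the other limits on cells. In these barcodes the log2 ratio of Cyp26b1 was 0.37 (-0.01 to 0.73; 80 and 278 UMIs) and that of Rdh10 was -0.94 (-1.82 to -0.16; 15 and 129 UMIs), and the other 6 enzymes had intervals that held 0.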
